A study of Mus musculus with 8 samples.

Results

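The guanylate-binding proteins (GBPs) and immunity-related GTPases (IRGs) are interferon-induced enzymes that bind and hydrolyse GTP inside cells. The 10 genes described here are 6 GBP genes (Gbp2, Gbp2b, Gbp3, Gbp5, Gbp6 and Gbp7) and 4 IRG genes (Igtp, Irgm1, Irgm2 and Iigp1), taken from a named list, out of 55401 gene identifiers with counts. They were read in 8 polyA RNA sequencing libraries of mouse cells: 3 of the line EHE6, 3 of EHE17 and 2 of EHE26. EHE stands for epithelioid hemangioendothelioma, a rare tumour of endothelial character in which many human cases carry a WWTR1 and CAMTA1 fusion. The labels give the name of each line and no genotype, treatment, passage or origin, so no line is a control and nothing is recorded that all lines share beyond the tumour type and species. They also do not say whether replicates were separate cultures, so every p-value measures only the spread between these libraries.

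Libraries held 44620965 to 96237665 counts each. On the first principal component of all tested genes (56.2% of the variance), replicates 1 and 2 of EHE6 and EHE17 formed a first set, and replicate 3 of both lines lay toward the 2 EHE26 libraries, a second set. The line EHE26 is therefore in the second set only, and what that set shares cannot be told apart from EHE26 except against the single replicate 3 of each other line. Summed endothelial markers (10 genes) were at 3243 to 12542 CPM in EHE6 libraries, 6373 to 10633 in those of EHE17 and 4874 to 5954 in those of EHE26 (CPM, counts scaled to a common library size with TMM factors). Of these 10, 9 had a negative log2 fold change in EHE26 against EHE6 (median -0.80 over the 10). Of the 9, 0 were called lower by edgeR, 3 were lower at an unadjusted p under 0.05 and 3 were called lower by DESeq2. The other, Cd34, was called higher by edgeR in EHE26 against EHE6 (log2 fold change 2.65) and also against EHE17. Pecam1, an endothelial adhesion gene among the 9 with a negative value, was at 1179 to 1675 CPM in EHE26. Smooth muscle and pericyte markers summed to 223 to 672, 7.95 to 62.5 and 152 to 155 CPM in EHE6, EHE17 and EHE26, and epithelial markers to 19.8 to 104, 0.883 to 29.3 and 3.31 to 31.2 CPM. Fibroblast markers were at 45.5 to 268, 35.8 to 261 and 186 to 427 CPM in the same order. Macrophage and leukocyte markers (9 genes) summed to 47.7 to 52.3 CPM in EHE6, 88.5 to 147 in EHE17 and 49.2 to 71.5 in EHE26. Ptprc, which encodes the pan-leukocyte protein CD45, was at 1.49 CPM or less in every library, and Cd3e, which marks T cells, was at 0 in EHE26. Other genes of that list therefore carried nearly all of its sum in EHE26, and the low level of these genes does not stand for the list. Of the 7 leukocyte markers tested, 0 were called in any comparison by edgeR or DESeq2, with 1 at an unadjusted p under 0.05 in each comparison. The part of these cells or of the sets in the results was not tested.

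Interferon gamma acts through its receptor and leads to the binding of GAS elements in the promoters of its target genes. Type I interferons act through a complex that holds STAT2 and IRF9 and binds ISRE elements, and other IRF proteins bind the same elements. GBPs coat the vacuoles or membranes of intracellular bacteria and parasites and promote their lysis and inflammasome activation. IRGs are of 2 kinds: the regulators Irgm1, Irgm2 and Igtp (Irgm3) sit on the host's own membranes and hold the others inactive, and effectors such as Iigp1 (Irga6) load onto the vacuole of a parasite. Endothelial cells are among the cell types that make GBPs in quantity on exposure to interferon.

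The genes lie in clusters of near copies. Gbp5, Gbp7, Gbp3, Gbp2b and Gbp2 stand in that order, all on the plus strand, between chr3:142493978 and 142638008 of GRCm38. Gbp6 is at chr5:105270702-105293698 on the minus strand, within a second GBP cluster. Irgm1 is at chr11:48861968-48871683 on the minus strand, Igtp at chr11:58199556-58207591 and Irgm2 at chr11:58199618-58222782, both on the plus strand.

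The stretches of promoter that hold interferon motifs show what these genes have in common outside their coding sequence. RefSeq (GRCm38.p6) gave 9 promoters for 8 of the genes, and the 250 bases before each start were searched on both strands for the GAS motif TTCNNNGAA and the ISRE motif, which is GAAA and GAAA with 2 bases of any kind between them (TTTC and TTTC on the other strand). Each stretch below runs 5′ to 3′ on the strand of its gene, with matches in capitals and 15 bases kept on each side.
Gbp7, chr3:142530215-142530307, plus strand: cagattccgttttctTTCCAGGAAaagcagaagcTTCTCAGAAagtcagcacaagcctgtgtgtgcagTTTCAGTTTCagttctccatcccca
Gbp3, chr3:142559984-142560029, plus strand: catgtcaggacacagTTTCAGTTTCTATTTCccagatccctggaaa
Gbp2b, chr3:142594695-142594734, plus strand: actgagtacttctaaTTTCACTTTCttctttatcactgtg
Gbp2, chr3:142620589-142620628, plus strand: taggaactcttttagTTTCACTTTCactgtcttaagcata
Irgm1, chr11:48871421-48871465, minus strand: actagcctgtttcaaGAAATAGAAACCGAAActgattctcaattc
Igtp, chr11:58199496-58199546, plus strand: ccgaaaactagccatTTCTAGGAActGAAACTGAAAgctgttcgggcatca
Irgm2, chr11:58214887-58214937, plus strand: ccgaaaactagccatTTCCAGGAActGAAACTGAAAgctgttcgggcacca

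The ISRE letters were found in 8 of the 9 promoters (88.9%), against 978 of 32851 RefSeq promoters searched the same way (2.98%). The GAS letters were found in 4 of the 9 (44.4%: Gbp5, Gbp7, Igtp and Irgm2), against 2306 of all promoters (7.02%). The ISRE match began 53 bases before the start in Gbp7 and 59 in Gbp2, but 137 in Gbp2b, the neighbour of Gbp2. In Gbp3 and Irgm1, 2 ISRE matches overlap within one run of capitals. In Gbp5, GAS matches began 245 and 52 bases before the start and an ISRE match 165 bases before it. The stretches of Igtp and Irgm2 are identical at 49 of 51 bases and differ by T19C and T49C (the Igtp base first, positions counted from 1 at the 5′ end of the stretch). The promoter without a match is a second RefSeq start of Gbp3. The RefSeq starts of Gbp5, Gbp3, Gbp2, Irgm1 and Irgm2 lie downstream of the start of the GENCODE gene, and only for Irgm2 and the second Gbp3 start did the transcribed bases match no GENCODE transcript. A match is a run of letters in the reference and says nothing about binding in these cells.

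All 10 genes were highest in EHE26, with every EHE26 library above every library of both other lines. In 9 of the 10 the line means were ordered EHE6, EHE17, EHE26 from low to high, and the exception was Gbp2b, whose level in EHE17 was below that in EHE6 at a handful of reads each. Summed over the 10 genes, the level was 37.9 to 63.1 CPM in EHE6, 101 to 139 in EHE17, and 1128 and 874 in EHE26. As a share of all counts this was at most 0.00673% in an EHE6 library and 0.110% in EHE26 replicate 1. In such bulk libraries, fewer cells that express a gene and less RNA per cell cannot be told apart.

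**Figure D1:**
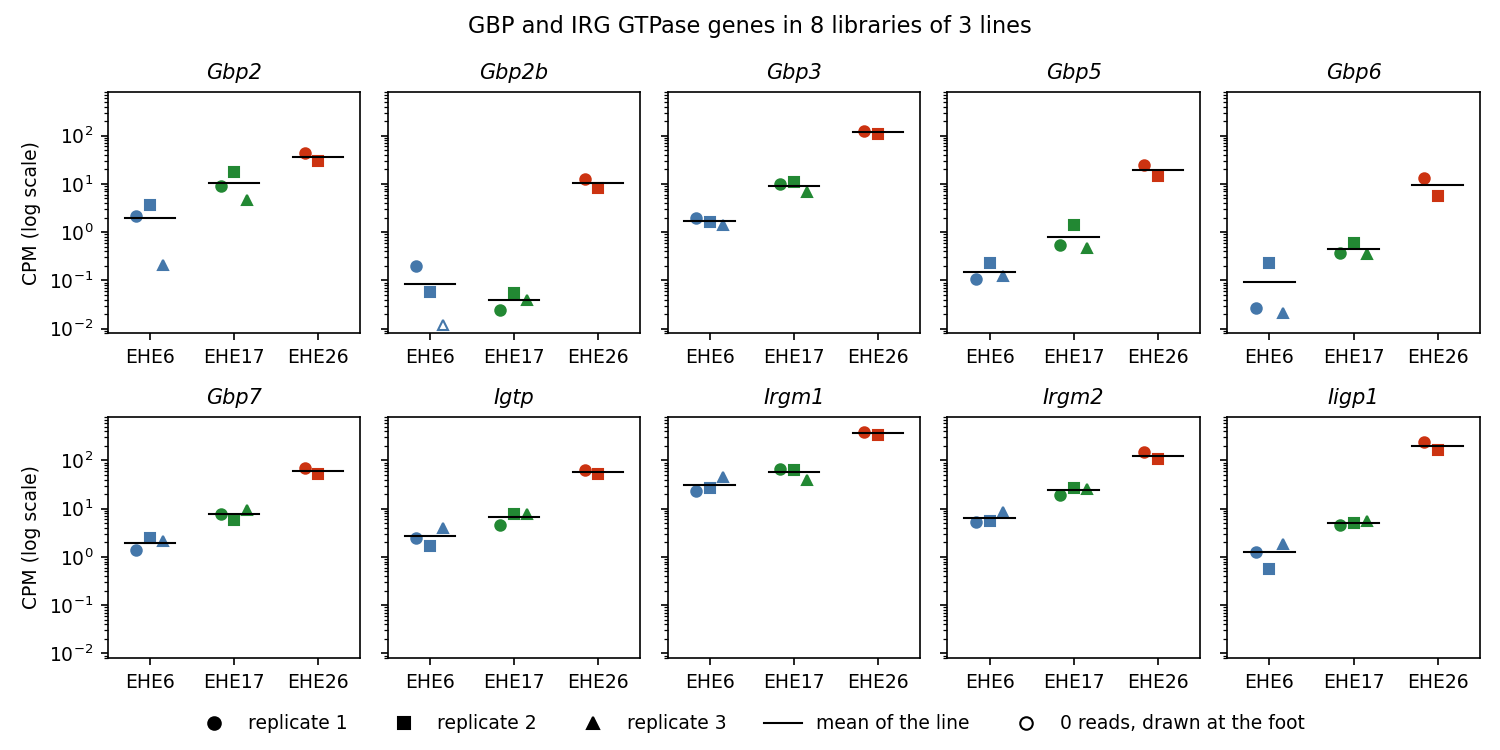
Level of each of the 10 GTPase genes in every library, in CPM on a log axis, with 1 panel per gene, points for libraries, a line at the mean of each cell line and open symbols at the foot for 0 reads. In every panel both EHE26 points lie above all points of EHE6 and EHE17, and for Irgm1 and Gbp2b the points of EHE6 and EHE17 overlap.

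A gene is called here where edgeR's quasi-likelihood test gave a Benjamini-Hochberg adjusted p under 0.05 and the log2 fold change was 1 or more in size. In EHE26 against EHE6, 9 of the 10 genes were called higher, where 1.10% of 18882 tested genes were, and the exception was Gbp2. The 9 include Gbp2b, which passed the low-count filter only through EHE26, so its difference was a condition of its being tested, and without it 8 of 9 were called. Every EHE26 library lay above every EHE6 library for 10 of 10 genes (9 of 9 without Gbp2b), against 16.0% of tested genes. The median log2 fold change of the 10 genes, Gbp2b included, was 5.53, beside -0.11 for all tested genes. In EHE26 against EHE17, 8 of the 10 were called higher (0.890% of tested genes), with Gbp2 and Gbp6 not called, and 7 of 9 without Gbp2b. Every EHE26 library lay above every EHE17 library for 10 of 10 genes (9 of 9 without Gbp2b), against 18.7% of tested genes. The median of the 10 genes, Gbp2b included, was 3.40, beside -0.11 for all tested genes. Calls among the 10 genes against EHE17 fell to 0 without EHE17 replicate 1 or replicate 2 and to 5 without EHE17 replicate 3. Over all tested genes, calls fell from 203 to 7, 2 and 147 in these 3 fits. Without EHE26 replicate 1 or 2, which left 1 library in that line, the median of the 10 genes was 3.27 or 3.52. All values were still higher in EHE26 in these fits.

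In EHE17 against EHE6, 1 of the 10 genes, Gbp3, was called higher (0.0794% of tested genes). Every EHE17 library lay above every EHE6 library for 8 of the 10, against 7.25% of tested genes, and 9 of 10 had an unadjusted p under 0.05 and a higher level in EHE17. The median was 2.0, beside -0.03 for all tested genes. DESeq2 called 5 of the 10 higher in this comparison, and 1.34% of the genes it tested. The call of Gbp3 was lost when only EHE6 and EHE17 entered the fit with the replicate number as a block (adjusted p = 0.237), and leaving out any 1 of 6 libraries (replicates 1 and 2 of each line) gave 0 calls. Calls over all tested genes also fell, from 27 to 19 with that block. They fell to 5 and 4 without EHE6 replicate 1 or 2, and to 1 and 4 without EHE17 replicate 1 or 2. None of the 10 genes was called lower in any comparison by edgeR or DESeq2, and none had a lower level at an unadjusted p under 0.05.

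**Figure D2:**
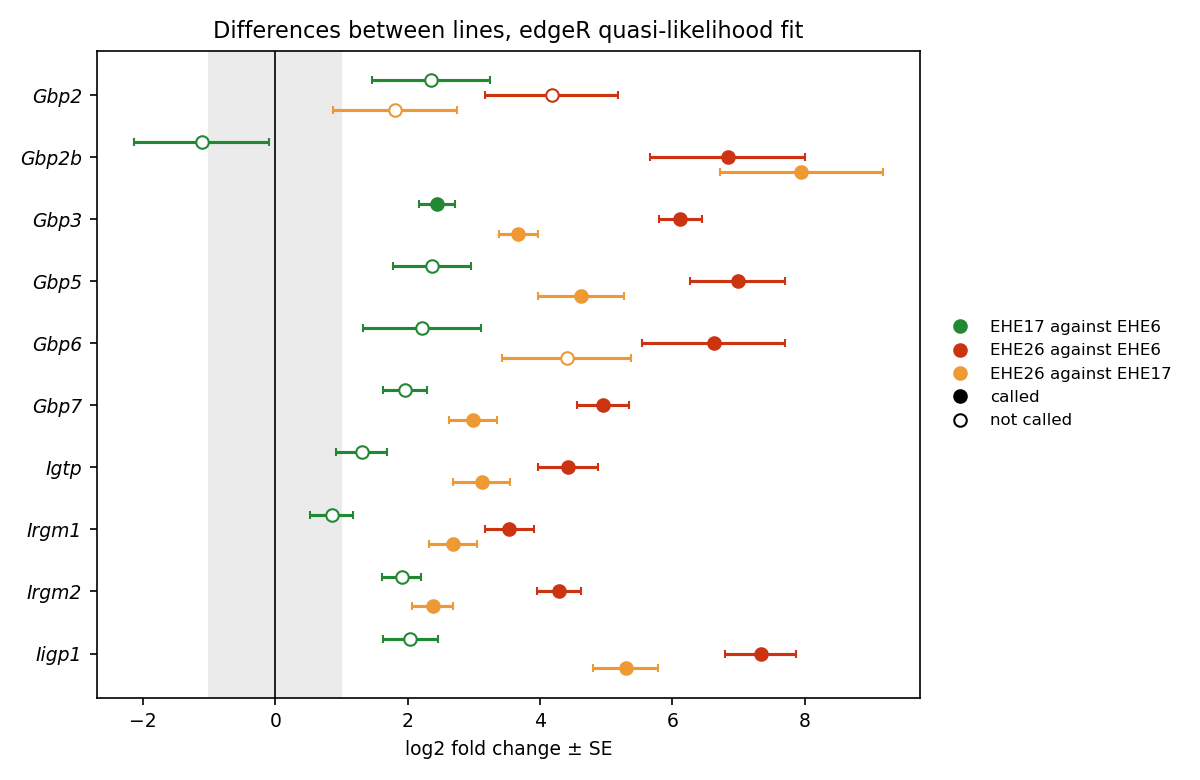
Log2 fold change ± SE of the 10 genes in each of the 3 comparisons, with filled symbols for genes that were called and a grey band from -1 to 1. The points of EHE26 against EHE6 lie between 3.54 and 7.33, and those of EHE17 against EHE6 between -1.11 and 2.45 with Gbp3 alone filled.

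Among the GBPs of the 10 genes, Gbp3 was the most abundant in EHE26. Its level was 1.98, 1.62 and 1.43 CPM in EHE6 replicates 1 to 3, 9.97, 10.8 and 6.74 in EHE17, and 125 and 109 in EHE26. The 3 lines were separated at every step. The log2 fold change was 2.45 ± 0.27 (SE) in EHE17 against EHE6 (adjusted p = 0.0301). It was 6.12 ± 0.33 in EHE26 against EHE6 (adjusted p = 0.000743) and 3.67 ± 0.30 in EHE26 against EHE17 (adjusted p = 0.00779). The mean in EHE26 was thus 69.7 times that in EHE6.

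Gbp7 is the next gene of the cluster, and its product is linked to host defence against bacteria and Toxoplasma. It was at 1.36, 2.41 and 2.19 CPM in EHE6, 7.74, 5.87 and 9.59 in EHE17, and 70.5 and 51.8 in EHE26. The lines again did not overlap. Gbp7 was called in EHE26 against EHE6 (4.94 ± 0.39, adjusted p = 0.00159) and against EHE17 (2.98 ± 0.36, adjusted p = 0.0130). Between EHE17 and EHE6 its log2 fold change of 1.96 ± 0.34 did not pass (adjusted p = 0.109).

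Gbp2 varied widely within EHE6. It was at 2.14, 3.67 and 0.210 CPM there, at 8.91, 17.4 and 4.63 in EHE17, and at 43.2 and 29.6 in EHE26. EHE6 replicate 3 held 0.0722 times the mean of the other 2 EHE6 libraries. The libraries of the 3 lines did not overlap, yet no comparison of Gbp2 was called. The log2 fold change was 2.36 ± 0.89 in EHE17 against EHE6 (adjusted p = 0.642), 4.17 ± 1.0 in EHE26 against EHE6 (adjusted p = 0.120) and 1.82 ± 0.94 in EHE26 against EHE17 (adjusted p = 0.355). Gbp2 was called in EHE26 against EHE6 in 6 of 18 alternatives, among them DESeq2 (adjusted p = 0.000483) and the fit without EHE6 replicate 3 (3.66, adjusted p = 0.0204), with log2 fold changes of 3.66 to 7.42 over the 18.

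Gbp2b, known as Gbp1 in older naming, had few reads outside EHE26. It had 15, 4 and 0 reads in EHE6, 2, 5 and 2 reads in EHE17, and 696 and 366 reads in EHE26, which are 12.8 and 8.03 CPM. The log2 fold change was 6.83 ± 1.17 in EHE26 against EHE6 (adjusted p = 0.0375) and 7.95 ± 1.23 against EHE17 (adjusted p = 0.0322). Gbp2b passed the low-count filter only through EHE26, so its difference was a condition of these tests and the calls are no separate support for it. Against EHE6 only the fits without EHE6 replicate 3 or EHE17 replicate 3 kept the call when 1 library was left out (6.31 to 8.30, adjusted p up to 0.204), and against EHE17 only those without EHE6 replicate 1 or 3 (adjusted p up to 0.173). EHE6 and EHE17 overlapped, and the sign of their difference (-1.11 ± 1.02, adjusted p = 1) turned to 0.36 without EHE6 replicate 1.

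Gbp5 encodes a GBP that carries a prenylation signal and is known for promoting NLRP3 inflammasome assembly. It was at 0.108, 0.226 and 0.126 CPM in EHE6, 0.547, 1.38 and 0.461 in EHE17, and 24.9 and 14.4 in EHE26. Every line was separated from the others. The log2 fold change was 6.98 ± 0.72 in EHE26 against EHE6 (adjusted p = 0.00456) and 4.62 ± 0.64 in EHE26 against EHE17 (adjusted p = 0.0203). That of EHE17 against EHE6, 2.37 ± 0.59, was not called (adjusted p = 0.307).

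Gbp6, the one GBP of the list on chromosome 5, was the lowest per length in EHE26. It had 2, 16 and 1 reads in EHE6, 30, 53 and 18 in EHE17, and 713 and 256 in EHE26. All EHE17 libraries exceeded all EHE6 libraries in reads and in CPM. The mean level in CPM was 0.0912 ± 0.117 for EHE6 (SD, n = 3), 0.440 ± 0.127 for EHE17 (SD, n = 3) and 9.37 ± 5.31 for EHE26 (SD, n = 2). Gbp6 was called in EHE26 against EHE6 (6.62 ± 1.07, adjusted p = 0.0301) and missed the threshold against EHE17 (4.40 ± 0.97, adjusted p = 0.0887). The call against EHE6 was lost without EHE6 replicate 1, EHE17 replicate 1 or 2, or either EHE26 library (5.89 to 8.47 over the libraries left out, adjusted p up to 0.180). In EHE17 against EHE6 its value was 2.22 ± 0.89 (adjusted p = 0.678).

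The regulatory IRG gene Irgm1, whose product resides on Golgi and lysosomal membranes, was the most abundant of the 10 genes per length in each line. It was at 23.1, 26.3 and 44.7 CPM in EHE6, 67.2, 63.3 and 40.0 in EHE17, and 394 and 335 in EHE26. EHE17 replicate 3 lay below EHE6 replicate 3, so those lines overlapped. The log2 fold change between them was 0.86 ± 0.33 (adjusted p = 0.644), and -0.16 when the second set was fitted alone. In EHE26 Irgm1 was called against EHE6 (3.54 ± 0.37, adjusted p = 0.00508) and against EHE17 (2.68 ± 0.36, adjusted p = 0.0184). At 11.6 times the EHE6 mean, its EHE26 mean gave the smallest ratio of EHE26 to EHE6 among the 10 genes over all libraries, while without EHE6 replicate 3 the log2 fold change was 3.89 for Irgm1 and 3.66 for Gbp2.

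Irgm2 and Igtp, the other regulators, differed more between EHE6 and EHE17 than their SE but were not called. Irgm2 was at 5.24, 5.50 and 8.49 CPM in EHE6, 19.2, 27.2 and 25.9 in EHE17, and 145 and 105 in EHE26. Its log2 fold change was 1.91 ± 0.29 in EHE17 against EHE6 (adjusted p = 0.0767), 4.29 ± 0.33 in EHE26 against EHE6 (adjusted p = 0.00159) and 2.38 ± 0.31 in EHE26 against EHE17 (adjusted p = 0.0164). Igtp was at 2.44, 1.65 and 4.01 CPM in EHE6, 4.69, 7.75 and 7.58 in EHE17, and 63.7 and 52.2 in EHE26. Neither gene had overlapping lines. Igtp gave 1.31 ± 0.39 in EHE17 against EHE6 (adjusted p = 0.449), 4.43 ± 0.45 in EHE26 against EHE6 (adjusted p = 0.00456) and 3.12 ± 0.43 in EHE26 against EHE17 (adjusted p = 0.0199).

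The effector IRG gene Iigp1 (chr18:60376027-60392634, plus strand) had the largest ratio of EHE26 to EHE6 means of the 10 genes over all libraries, though not against EHE6 replicate 3 alone (106 times, below Gbp2, Gbp5 and Gbp6). It was at 1.29, 0.564 and 1.87 CPM in EHE6, 4.65, 4.98 and 5.62 in EHE17, and 235 and 163 in EHE26. The EHE26 mean was 160 times the EHE6 mean, and the EHE17 mean was 4.09 times it. The log2 fold change was 7.33 ± 0.53 in EHE26 against EHE6 (adjusted p = 0.00159), 5.29 ± 0.49 in EHE26 against EHE17 (adjusted p = 0.00779) and 2.04 ± 0.42 in EHE17 against EHE6 (adjusted p = 0.177). Of the summed CPM of the 10 genes, Iigp1 made up 2.60%, 4.19% and 19.9% in EHE6, EHE17 and EHE26, and Irgm1 made up 65.7%, 46.9% and 36.4%.

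Per length, levels are given as RPKM (CPM per kilobase of exon). In EHE6 the order ran from Irgm1 (5.40 ± 2.01, SD, n = 3) through Irgm2 (1.74 ± 0.489) and Igtp (1.34 ± 0.595) to Gbp2 (0.798 ± 0.689), and the other 6 genes were at 0.514 or less. Irgm1 stood clear of Irgm2 there, and Irgm2, Igtp and Gbp2 lay within their SDs of each other. These SDs are between libraries, and within each EHE6 library Irgm2 was above both Igtp and Gbp2. In EHE17 Irgm1 (9.78 ± 2.53) and Irgm2 (6.53 ± 1.16) led again, followed by Gbp2 (4.10 ± 2.59), whose SD reached its neighbours on both sides. Within each EHE17 library Irgm2 was above Gbp2. In EHE26 Irgm1 (62.7 ± 7.14, SD, n = 2) was followed by Gbp3 (35.8 ± 3.37), Iigp1 (34.2 ± 8.81), Irgm2 (33.9 ± 7.75) and Igtp (28.7 ± 4.04), and of the last 4, Iigp1 and Irgm2 overlapped with their neighbours while both Gbp3 libraries lay above both Igtp libraries. Gbp2 (14.5 ± 3.82) and Gbp7 (10.9 ± 2.35) came next. Gbp2b (3.69 ± 1.20), Gbp5 (2.97 ± 1.12) and Gbp6 (1.57 ± 0.891) were lowest. Irgm1 and Irgm2 thus led in EHE6 and EHE17, and in EHE26 Gbp3 and Iigp1 stood beside Irgm2.

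The 2 EHE26 libraries were ordered alike for all 10 genes: replicate 1 was higher in each, by 1.14 times (Gbp3) to 2.34 times (Gbp6). Against the single EHE6 library of the second set, the EHE26 mean was 8.14 times higher for Irgm1, 14.4 for Igtp, 14.8 for Irgm2, 28.0 for Gbp7, 81.9 for Gbp3, 106 for Iigp1, 156 for Gbp5 and 173 for Gbp2. Gbp6 had 1 read and Gbp2b 0 reads in that library. With 1 EHE6 and 1 EHE17 library in that set, these ratios have no replicate check on that side. Within the second set, EHE17 replicate 3 exceeded EHE6 replicate 3 by up to 22.1 times (Gbp2), with Irgm1 at 0.895 times. In the first set alone, EHE17 against EHE6 gave 0 calls among the 10 genes by edgeR and 97 over all genes. The median log2 fold change of the 10 genes was 2.12 there.

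Reads that fall in sequence shared between paralogues can be split, dropped or counted in the wrong gene, and the counting rule is not given in the sources used here. For each gene, all 75-base words of its exons were looked up in the exons of all other genes of the GENCODE M21 annotation. The share found elsewhere was 0 for Irgm1 and Iigp1 and 0.578% for Gbp5. Gbp2 and Gbp2b shared 24 words, 0.955% and 0.873% of theirs, and Gbp3 shared 2.06%, all with Gbp7. These 6 genes are therefore read almost wholly from sequence of their own. Gbp7 shared 11.3%, mostly with Gm43802, a gene model that overlaps its exons and has 0 reads in all 8 libraries. Igtp shared 7.80% and Irgm2 4.78%, almost all with each other. The Irgm2 model begins inside the first exon of Igtp, and 162 exonic bases belong to both.

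**Figure D3:**
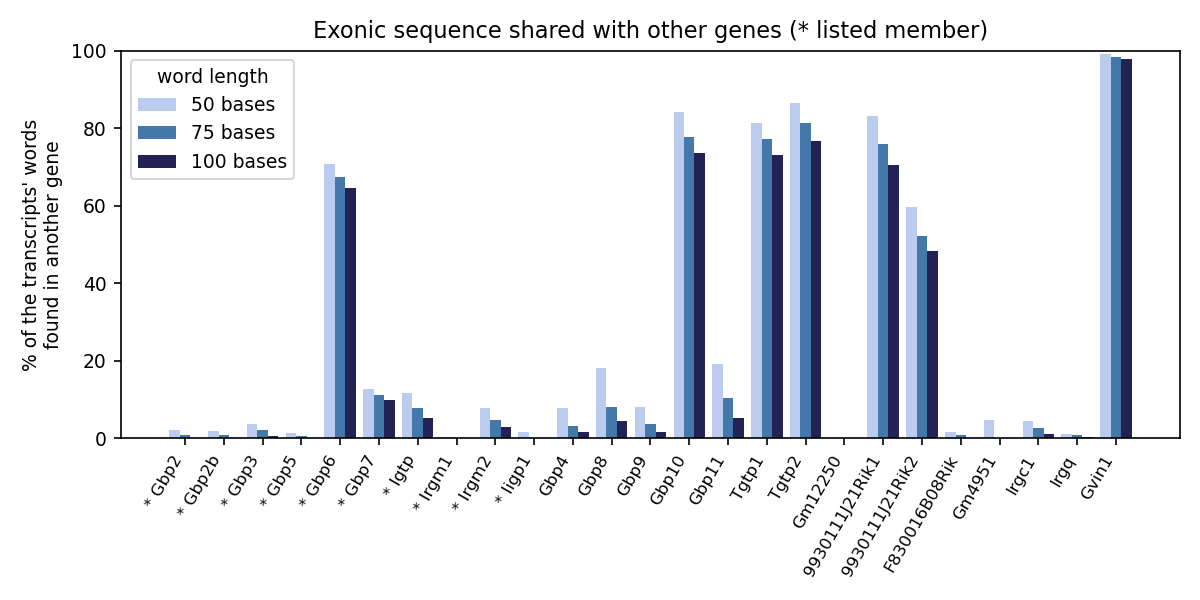
Percent of the 50-, 75- and 100-base words of each listed GBP and IRG gene that also occur in the exons of another gene, as bars. An asterisk marks the 10 genes described. At 75 bases Gbp6 reaches 67.3%, Gbp7 11.3% and Igtp 7.80%, and Irgm1 and Iigp1 are at 0.

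Gbp6 is the uncertain member. Of its 75-base words, 67.3% occur elsewhere, 61.7% in Gm43302, whose exons overlap 29.0% of Gbp6 on the same strand, and 40.4% in Gbp10. Gm43302 held 8 reads in each EHE26 library and at most 1 in any other, and Gbp10 reached 1.25 CPM in EHE26 replicate 1. Summed with both, Gbp6 remained called in EHE26 against EHE6 (6.14 ± 0.93, adjusted p = 0.0230) and not called against EHE17 (4.35, adjusted p = 0.0675). Summed with every chromosome 5 gene linked by shared words, Gbp9 included, the log2 fold change in EHE26 against EHE6 was 0.06. In that sum Gbp9 alone was at 148 and 79.8 CPM in EHE26.

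The other near copies were also summed, for the chromosome 3 and chromosome 11 genes. Gbp3 and Gbp7 together gave 2.20 ± 0.21 in EHE17 against EHE6 (adjusted p = 0.0137), 5.60 in EHE26 against EHE6 and 3.40 in EHE26 against EHE17. Igtp and Irgm2 together gave 1.76, 4.33 and 2.57 in the same order. Gbp2 and Gbp2b together gave 4.48 in EHE26 against EHE6 and were not called (adjusted p = 0.102), the value of Gbp2 outweighing that of Gbp2b.

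A list of 15 further genes of the family, which is not the whole family, was also read, and 14 of them were tested. In EHE26 against EHE6, 6 of the 14 were called higher, 3 in EHE26 against EHE17 and 0 in EHE17 against EHE6, where 5 had an unadjusted p under 0.05 and DESeq2 called 4. None of the 14 was called lower. The medians were 5.27, 2.09 and 1.12 in that order of comparisons. The called genes were IRG genes or the giant GTPase gene Gvin1, and no further GBP gene was among them.

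Gm4951, an IRG gene near Iigp1, went from at most 0.0423 CPM in EHE6 to 0.783, 0.830 and 1.70 CPM in EHE17 and to 36.8 and 23.3 CPM in EHE26. Its log2 fold change in EHE26 against EHE6 was 10.12 ± 0.86 (adjusted p = 0.00201), and in EHE17 against EHE6 5.35 ± 0.74 (adjusted p = 0.0532). F830016B08Rik, also near Iigp1, was called in both comparisons with EHE26 (7.97 and 5.98). Tgtp2 (Irgb6), an effector that loads early onto Toxoplasma vacuoles, was at 16.4, 15 and 9.81 CPM in EHE17 and 166 and 100.4 CPM in EHE26. Tgtp1 and Tgtp2 were called in EHE26 against EHE6 (6.08 ± 0.90, adjusted p = 0.0222, and 6.81 ± 0.71, adjusted p = 0.00489), but 77.2% and 81.4% of their words are shared, so they cannot be told apart. Gm12250 (Irgb10), an effector on bacterial membranes that is annotated as a pseudogene in this release, gave 7.34 ± 1.19 (adjusted p = 0.0300). Gvin1 was called in both comparisons with EHE26 (5.99 and 5.56), and 98.3% of its words occur in another gene.

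**Figure D4:**
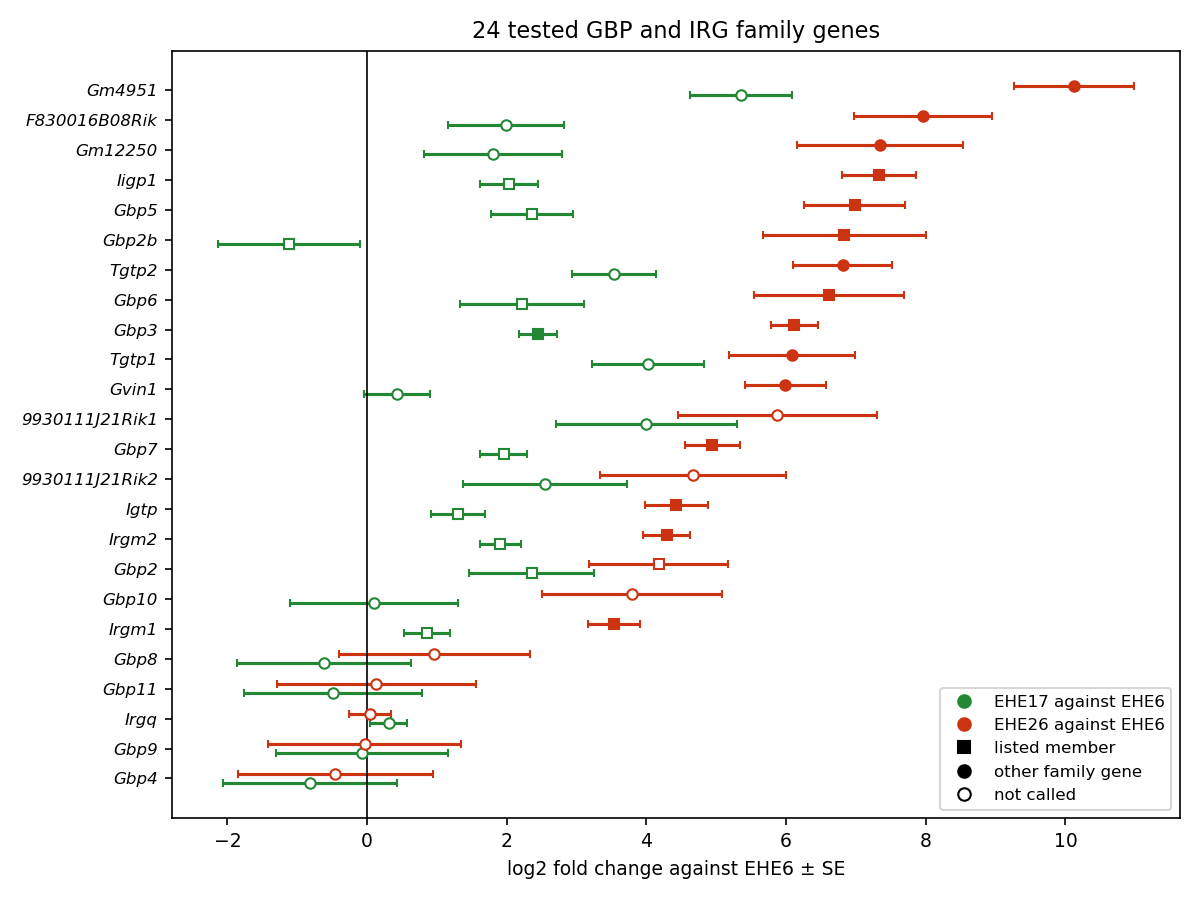
Log2 fold change ± SE of the 24 listed and tested GBP and IRG family genes in EHE17 and in EHE26 against EHE6. Squares mark the 10 genes described and filled symbols called genes. Gm4951 reaches 10.12 in EHE26, while Gbp4, Gbp9 and Irgq lie between -1 and 1.

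None of the chromosome 5 GBP genes other than Gbp6 was called by edgeR. Log2 fold changes in EHE26 against EHE6 were 3.79 ± 1.29 for Gbp10 (adjusted p = 0.248), 0.96 ± 1.36 for Gbp8 and 0.13 ± 1.43 for Gbp11, all 3 under 1 CPM on average in each line. Gbp10 alone of these 5 genes had an unadjusted p under 0.05, in both comparisons with EHE26. Gbp9 was at 100.4, 248 and 1.51 CPM in EHE6, 206, 73.6 and 53.3 in EHE17, and 148 and 79.8 in EHE26. The spread within EHE6 was larger than any difference between the lines, and its log2 fold changes were -0.07, -0.03 and 0.04. Gbp4 was at 3.97, 17.3 and 0.126 CPM in EHE6 and at 7.98 and 2.43 in EHE26 (log2 fold change -0.45 in EHE26 against EHE6, adjusted p = 0.916). Both had their lowest level in EHE6 replicate 3, as Gbp2 did. Irgq, a divergent IRG family member that is not known as interferon-induced, averaged 48.7, 60.2 and 50.2 CPM in EHE6, EHE17 and EHE26. For 9930111J21Rik1 and 9930111J21Rik2 the log2 fold changes in EHE26 against EHE6 were 5.88 ± 1.43 (adjusted p = 0.123) and 4.67 ± 1.33 (adjusted p = 0.177), and neither was called.

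Of the genes that bring the interferon signal to the family, the receptor chains were not called, and neither was the transcription factor gene Irf1. Ifngr1 and Ifngr2, the chains of the interferon gamma receptor, had log2 fold changes of 0.04 ± 0.45 and 0.61 ± 0.44 in EHE26 against EHE6, neither called. Irf1, a factor needed for GBP induction in many cells, was at 12.5, 11.2 and 17.2 CPM in EHE6 and at 41.7 and 29.1 in EHE26. The EHE26 libraries lay above those of EHE6, but Irf1 was not called (1.38 ± 0.36, adjusted p = 0.151). The ligand gene Ifng had 0 reads in all 8 libraries, where a count of 0 allows up to 3 counts, and Ifnb1 had 8 and 26 reads in EHE26, 2 in one EHE17 library and 0 in the others.

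In the interferon gamma signalling list, 4 of 17 tested genes were called higher in EHE26 against EHE6, 2 in EHE26 against EHE17 and 1 in EHE17 against EHE6. In EHE17 against EHE6, 3 had an unadjusted p under 0.05, all higher, and DESeq2 called 2. Among the 4 called by edgeR in EHE26 against EHE6 were Nlrc5 (6.53 ± 0.58), the MHC class I transactivator, Cd274 (4.31, adjusted p = 0.0180), which encodes PD-L1, and the chemokine gene Cxcl10 (5.91, adjusted p = 0.0327). Nlrc5 was also the gene called in EHE17 against EHE6 (4.06 ± 0.50, adjusted p = 0.0367). In the type I signalling list, 4 of 8 were called in EHE26 against EHE6: Stat2 (3.53), Irf9 (3.26), Irf7 (7.85) and Usp18 (7.77). Of these, 3 were also called in EHE26 against EHE17 and Irf9 was not. In EHE17 against EHE6 the list had 0 calls by edgeR, 2 genes with an unadjusted p under 0.05, both higher, and 2 calls by DESeq2.

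Type I effector genes, such as the antiviral Ifi44, Oas3 and Mx1, had 17 of 21 called in EHE26 against EHE6, 15 in EHE26 against EHE17 and 1, Ifi44, in EHE17 against EHE6. In EHE17 against EHE6, 12 of the 21 had an unadjusted p under 0.05, all higher, and DESeq2 called 7 higher. The medians of the 21 genes were 6.70, 4.75 and 1.20, beside 5.53, 3.40 and 2.0 for the 10 GTPase genes. No test compared the lists.

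**Figure D5:**
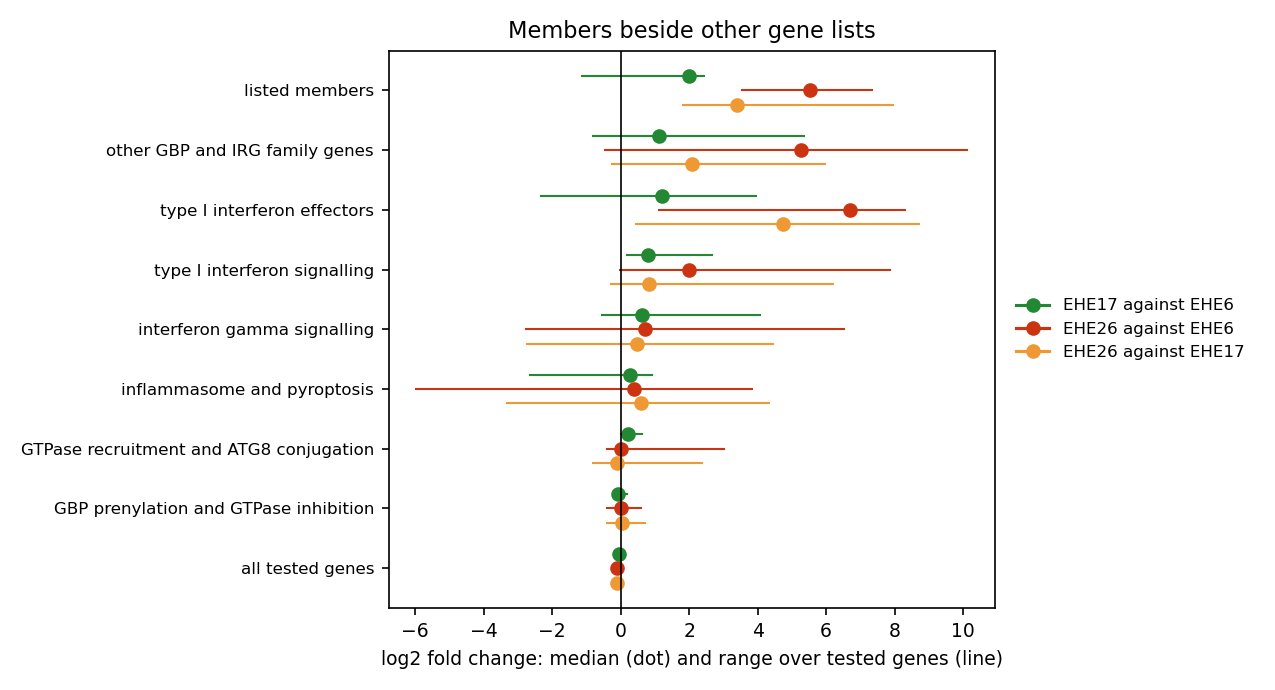
Median (point) and range (line) of the log2 fold changes in each gene list for the 3 comparisons. In EHE26 against EHE6 the medians were 5.53 for the 10 GTPases, 5.27 for the other family genes and 6.70 for the type I effectors. The signalling lists were lower, at 1.995 for type I and 0.70 for interferon gamma, beside -0.11 for all tested genes. No list of interferon gamma effectors was read, so the effectors of the 2 interferon types are not compared.

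Few of the genes through which GBPs and IRGs act were called between the lines. Of 33 tested genes for ATG8 conjugation and recruitment, inflammasomes, and prenylation or inhibition of these GTPases, 0 were called in EHE17 against EHE6 and in EHE26 against EHE17 by edgeR, and 1 was called in EHE26 against EHE6. With an unadjusted p under 0.05, 2, 6 and 6 were higher and 1, 2 and 2 lower in EHE17 against EHE6, EHE26 against EHE6 and EHE26 against EHE17, and DESeq2 called 0, 3 and 2 higher and 0, 1 and 0 lower. The called gene was Trim21 (3.02 ± 0.48, adjusted p = 0.0281), a cytosolic antibody receptor that is itself interferon-induced. Casp4, the caspase that senses lipopolysaccharide freed by GBPs, was at 10.1, 13.1 and 7.94 CPM in EHE6 and 34.4 and 20.7 in EHE26 (1.41 ± 0.39, adjusted p = 0.172). Gabarapl2, an ATG8 protein needed to direct IRGs and GBPs to vacuoles, had a log2 fold change of 0.52 ± 0.24 there (adjusted p = 0.327).

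The genes whose pattern over the 8 libraries was most like that of the 10 GTPases were ranked by the root mean square distance between centred log2 CPM profiles. The mean profile of the 10 genes was -2.01, -1.86 and -2.30 in EHE6, -0.43, 0.02 and -0.48 in EHE17, and 3.80 and 3.26 in EHE26. Predicted genes (Gm numbers and Rik names), Xist and Y-linked genes were left out of the ranking, so family genes with such names could not appear. The nearest genes outside the 10 were Cmpk2 (distance 0.419), H2-K1 (0.547), Trim30a (0.560), Tap1 (0.566), Psmb9 (0.572) and Xaf1 (0.621). The median over all tested genes was 2.28. H2-K1, Tap1 and Psmb9 belong to MHC class I antigen presentation. H2-K1 averaged 103.6, 400.3 and 2813 CPM in EHE6, EHE17 and EHE26. Of the 10 GTPase genes themselves, Gbp3 was nearest to their mean (0.350), and Gbp2 (1.24) and Gbp2b (1.50) were farthest from it.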

How the data were processed

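RNA was extracted with an RNeasy Mini kit and polyA-selected libraries were made with NEBNext Ultra II chemistry, per the labels. HISAT2 and the build mm10 are named in the submitters' processing notes. The counting tool, annotation and strand setting are not given in the sources used here. Deposited are raw read counts by Ensembl gene, and each sample's own file equals its column of the series table (8 of 8). Symbols, positions and exon lengths came from GENCODE M21 (55141 of 55401 identifiers, the rest holding at most 0.0181% of a library).

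Counts were fitted with edgeR 4.0.16 in R 4.3.3 (TMM factors, filterByExpr with a minimum count of 10, quasi-likelihood test, line as the only term, all 8 libraries), and p-values were adjusted over 18882 genes. The SE is the size of the log2 fold change divided by the square root of F. The biological coefficient of variation common to all genes was 0.600 (0.427 in the fit that also holds the library set). DESeq2 1.42.0 was an alternative. Others were RLE and upper quartile factors, no low-count filter, a replicate block, the 2 compared lines alone, the set as a term, each set alone, each library left out, and paralogues summed. Summing Gbp6 and Gbp7 with overlapping gene models was chosen after seeing the data.

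Simulated counts at this depth and per-gene spread held changes of log2 1, 2, 4 and 6. For EHE17 against EHE6, 0%, 20%, 64% and 74% were recovered, for EHE26 against EHE6 0%, 20%, 46% and 64%, and for EHE26 against EHE17 0%, 10%, 50% and 68%. In the same order, 6 of 85, 5 of 70 and 5 of 69 calls were false. The draws were independent between libraries and held no library sets, so these rates do not cover data split into sets as here.

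As a check of pairing, departures from the line mean were correlated across genes, which are not independent. Between same-numbered EHE6 and EHE17 libraries the correlations were 0.132, 0.18 and 0.574. The replicate number served as the block, but no label says that same-numbered libraries are paired. EHE6 replicate 1 correlated more with EHE17 replicate 2 (0.536), and EHE6 replicate 2 more with EHE17 replicate 1 (0.623). The block is thus not borne out for replicates 1 and 2. The floor for a gene with no read is 3 counts, and covers counting error only.

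The 10 genes, the lists of pathway and marker genes and the comparisons were chosen with earlier results of these data known. Named besides the 10 are family genes with a mean of at least 1 CPM in a line, called genes of the lists where few or largest, genes fixed by name, and the 6 nearest profiles. No protein sequences were used here. Some genes of the lists are not reported here by name.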

Additional observations from a re-analysis of the deposited data

How the results depend on the processing

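In EHE17 against EHE6, where 1 of the 10 genes was called, the count was 5 with DESeq2, 4 without a low-count filter, 3 with the set as a term, 2 in the second set alone (1 library of each line, assumed to vary like the EHE26 pair), 2 with paralogues summed, 0 in the first set alone and 0 with only the 2 lines in the fit. It was 0 to 2 when 1 library was left out. The replicate block kept 1 call with all 8 libraries (Gbp3, adjusted p = 0.0258) and gave 0 with only EHE6 and EHE17 in the fit. In EHE26 against EHE6 it gave 10 calls and in EHE26 against EHE17 9, where the EHE26 numbers are not a pairing. With paralogues summed, each gene of a called sum was counted. The 2 calls in EHE17 against EHE6 were therefore the single sum of Gbp3 and Gbp7. The 7 in EHE26 against EHE6 likewise count the sums of Gbp3 with Gbp7 and of Igtp with Irgm2 for each gene. In EHE26 against EHE6 the count by gene stayed at 7 to 10 in every alternative. Counts for both comparisons with EHE26 include Gbp2b where it was called, though it passed the low-count filter of the main fit only through EHE26. In EHE26 against EHE17 it was 0 to 9 when 1 library was left out, with 0 without EHE17 replicate 1 or 2 and 2 without EHE26 replicate 1 or 2. Directions turned in EHE17 against EHE6 for Gbp2b (4.07 in the second set alone, 2.30 summed with Gbp2, and, when 1 library was left out, -1.63 to 0.36), Gbp6 (-0.10 summed with its chromosome 5 paralogues) and Irgm1 (-0.16 in the second set alone). The cause was not tested. Over all genes, calls went from 27, 237 and 203 to 390, 1562 and 1685 with DESeq2 (EHE17 against EHE6, EHE26 against EHE6, EHE26 against EHE17), to 142, 547 and 745 without a filter, to 33, 1459 and 1860 with the block, to 102, 356 and 319 with the set as a term and to 473, 334 and 612 in the second set alone. In EHE17 against EHE6, calls over all genes were 97 in the first set alone and 7 with only the 2 lines in the fit. They were 5 and 4 without EHE6 replicate 1 or 2, and 1 and 4 without EHE17 replicate 1 or 2. In EHE26 against EHE17 they were 7 and 2 without EHE17 replicate 1 or 2. Genes at a few reads, such as Gbp2b and Gbp6 in EHE6, are limited by depth.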
